A study of Mus musculus with 16 samples.

Results

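The ribosome footprints of a mouse T cell leukaemia on partial valine diets were set against those on a control diet. Ribosome-protected fragments (RPF), the mRNA pieces left covered by ribosomes after nuclease digestion, count ribosomes on each mRNA when sequenced. Of the 16 samples of the series, 6 RPF libraries entered the comparison, 4 from partial valine diets and 2 from control. The genes described are those with a mean of at least 20 FPKM (read fragments per kilobase of gene length, relative to library size) over all 8 RPF libraries, which took 3036 of 12012 genes. Just inside that limit were Pxn at 20.0041 and Eif2s1 at 20.005 FPKM, and just outside it Fdps at 19.9894 and Abcb9 at 19.9944 FPKM.

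All mice were C57BL/6 and had received secondary transplants of NOTCH-ΔE tumours, a T cell acute lymphoblastic leukaemia (T-ALL). NOTCH-ΔE is a form of the Notch receptor without its extracellular part. The partial valine mice received a valine-free diet supplemented to 0.4 or 0.8 g/kg valine, and the control mice a diet with 8 g/kg valine. All were on their diet for 3 weeks, and GFP-positive leukaemic cells were then sorted from the spleen. Each diet gave 2 RPF libraries and 2 total RNA libraries, labelled T-ALL 2 and T-ALL 3, and in each pair of values below T-ALL 2 comes first. The labels put the dose in grams per kilogram of diet, while the treatment protocol speaks of drinking water. They state neither the age of the mice, nor whether a library pools several mice, nor whether the T-ALL numbers mark tumours or recipients, so the spread behind a p-value is that between libraries and may be technical.

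Valine is an essential branched-chain amino acid, loaded onto its tRNA by the valyl-tRNA synthetase Vars. When an amino acid runs short, uncharged tRNA activates the kinase GCN2, general translation initiation falls, and translation of the transcription factor ATF4 is favoured, which induces amino acid synthesis and transport genes. Ribosomes may also slow at codons whose tRNA is uncharged, so a footprint count reflects both how often an mRNA is initiated and how long ribosomes stay on it. The series title joins valine supply to mitochondrial complex I, which oxidises NADH in the respiratory chain, and the design text names ribosome occupancy as the measure. The comparison asks which genes differ in footprints when valine is lowered but not removed.

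The RPF libraries were shallow. At 0.4 g/kg they held 140641 and 58529 reads, at 0.8 g/kg 205545 and 115202, and at 8 g/kg 41848 and 71432. Both control libraries were thus shallower than 3 of the 4 partial valine libraries. For a gene of 1 kb, 1 read was worth 4.77 to 15.1 FPKM on partial valine, and 21.1 and 12.3 FPKM in the controls. The 3036 genes had a median of 86 reads over the 6 libraries, ranging up to 7152, and a median of 6 and 10 reads in the 2 controls. A total of 185 genes were at 0 reads in 1 control or both, and 28 in both. The 8 g/kg T-ALL 2 library stood apart, at -45.8 on the first principal component of the 8 RPF libraries, against 1.56 to 9.93 for the other 7. The 0.4 g/kg T-ALL 3 library stood apart on the second, at -34.7. Footprints of T cell identity genes, which define the labelled cell type, took 85.9 to 101 per 10000 reads on partial valine and 98.2 and 107 in the controls. Markers of other spleen cells were few, and their part in the results below was not tested. Of 13 neutrophil markers measured, 1 (Retnlg) was at 0 in all 6 libraries, and the sum was 0.389 to 1.54 per 10000 reads on partial valine against 0.239 and 0.420 in the controls. Of 13 macrophage markers none was at 0 throughout, with 0.513 to 1.90 against 1.19 and 4.62. Only 3 of 10 B cell, 2 of 8 platelet, 5 of 10 natural killer and 6 of 11 stromal markers were measured, so their sums say little. The sums ranged over 0 to 5.30 on partial valine and 0 to 3.50 in the controls, and Klrb1c, Eomes, Itga2b and Vwf were at 0 throughout. Most natural killer reads were from Gzma, with 186 reads on partial valine and 35 in the controls. In these bulk samples, fewer cells of a type and less RNA per cell cannot be told apart.

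No gene passed the test between partial valine and control. With limma on log2(FPKM + 5), a two-sided test adjusted by Benjamini-Hochberg over 9718 genes, 0 genes were called (0%), and the lowest adjusted p was 0.209. It belonged to Mrps11 of the mitochondrial ribosome and to the centrosome protein Cetn3, both named after their values were seen, with 27 and 22 reads on partial valine and 0 in both controls. At an unadjusted p under 0.05, 129 of the 3036 genes were higher on partial valine and 60 lower. Those counts are 4.25% and 1.98% of the genes, close to the 4.03% and 2.14% over all genes tested. Together they make 189 genes, where the p threshold alone would give 151.8. In 300 genes all 4 partial valine libraries lay above both controls and in 174 all lay below, or 9.88% and 5.73%, against 8.65% and 5.42% of all genes tested. The median log2 change was 0.09 over the 3036 genes and 0.12 over all genes tested. With each library centred on its median it was 0.03 over the 3036 genes, so this baseline depends on the scaling of the libraries. Of the 3036 genes 1722 were higher and 1314 lower (56.7% higher), which is the baseline for the counts on the lists below. The genes named below as higher or lower are therefore described by their values, and none is a called change. An exact permutation test of 4 against 2 libraries cannot go below p = 0.133.

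The counts depended on single libraries. Without the 8 g/kg T-ALL 3 library 254 genes were higher at an unadjusted p under 0.05, and without the 0.8 g/kg T-ALL 2 library 71. Without the 8 g/kg T-ALL 2 library 129 were higher and 32 lower, and without the 0.4 g/kg T-ALL 2 library 105 were lower. The number of adjusted calls was 0 in each of these fits.

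The 2 doses were also fitted apart against the same 2 controls, so their values share those libraries. At 0.4 g/kg 104 of the 3036 genes were higher and 93 lower at an unadjusted p under 0.05, beside 3.41% and 2.73% of all genes tested. At 0.8 g/kg 88 were higher and 34 lower, beside 3.50% and 1.21%. Set directly against each other, 0.8 g/kg had 68 genes higher than 0.4 g/kg and 12 lower at that threshold, beside 2.34% and 0.659% of all genes. By limma 0 genes passed the adjusted test in any of these 3 comparisons, with lowest adjusted p-values of 0.600 for 0.4 g/kg, 0.430 for 0.8 g/kg and 1 between the doses.

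Total RNA of the same cells, which the choice of genes did not use, had 0 calls among 10054 genes tested (0%). At an unadjusted p under 0.05, 68 of the 3036 genes were higher in total RNA and 59 lower, beside 1.50% and 1.97% of all genes, and the median change was 0.00. Translational efficiency (TE), the log2 difference of RPF and total RNA, had 0 calls among 9361 genes (0%) by limma, with a lowest adjusted p of 0.173. At the unadjusted threshold 100 genes were higher in TE and 47 lower, beside 4.14% and 2.03%.

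Of the 10 genes named for the smallest p-values among those higher on partial valine, 3 were chaperones or their partner. Hsp90b1 (chromosome 10, 86690841 to 86705444, GRCm38), the Hsp90 of the endoplasmic reticulum, had RPF levels of 246 and 155 FPKM at 0.4 g/kg and 204 and 167 at 0.8 g/kg, against 45.8 and 95.8 at 8 g/kg. All 4 partial valine libraries lay above both controls. The means were 193 ± 40.9 FPKM on partial valine and 70.8 ± 35.3 in the controls (SD, n = 4 and n = 2), a log2 change of 1.45 ± 0.38 (SE, limma, adjusted p = 0.787). Without the 8 g/kg T-ALL 2 library, which held 7 of its reads, the change was 0.95. Total RNA of Hsp90b1 had a log2 change of 0.51 ± 0.14, with 203, 224, 166 and 192 FPKM on partial valine against 128 and 143 in the controls, again without overlap. Ahsa1 (chromosome 12, 87266415 to 87273998), which stimulates the ATPase of Hsp90, had 151 and 169 FPKM in RPF at 0.4 g/kg and 138 and 150 at 0.8 g/kg, against 62.6 and 55.0 at 8 g/kg. Its log2 change was 1.30 ± 0.29 in RPF (adjusted p = 0.787) and 0.01 in total RNA. The 4 partial valine values of Ahsa1 stayed within 138 to 169 FPKM.

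Hspa1a (chromosome 17, 34969359 to 34972156), the stress-inducible Hsp70, had 49.6 and 230 FPKM in RPF at 0.4 g/kg and 33.7 and 25.5 at 0.8 g/kg, against 14.2 and 4.16 at 8 g/kg. The groups did not overlap, and the 0.4 g/kg T-ALL 3 library was far above the rest. These values rest on 96 reads on partial valine and 3 in the controls, a ratio of 7.65 per unit of library size with an exact 95% counting interval of 2.54 to 37.7. Total RNA of Hspa1a was 59.9 and 112 FPKM at 0.4 g/kg and 16.0 and 3.07 at 0.8 g/kg, against 11.8 and 4.37 at 8 g/kg, so there the 0.8 g/kg libraries overlapped the controls. Hspa1l, a related Hsp70, had 5, 15, 1 and 1 reads on partial valine and 0 in both controls, at least 1.75-fold higher against a floor of 3 reads over the control group. Near-identical Hsp70 genes may share reads, so Hspa1a and Hspa1l are uncertain as single genes. The constitutive Hsp70 Hspa8, with far more reads, had 714 and 614 FPKM at 0.4 g/kg and 782 and 760 at 0.8 g/kg, against 494 and 586 at 8 g/kg, a log2 change of 0.41 ± 0.25 (adjusted p = 0.809). Over the heat shock list, 9 of 12 genes were higher and 3 lower, with 0 called and a median log2 change of 0.53 in RPF and 0.04 in total RNA. The list medians were 0.67 in T-ALL 2 and 0.38 in T-ALL 3. Its 3 genes at an unadjusted p under 0.05 were Ahsa1, Hspa1a and Hspa1l, the last named after its values were seen. Its summed share overlapped between groups, at 88.2 to 106 per 10000 reads on partial valine and 78.9 and 91.7 in the controls.

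The endoplasmic reticulum list, chaperones and folding enzymes of the unfolded protein response, had a median log2 change of 0.27 in RPF, with 9 of 13 genes higher and 0 called. The median was 0.61 in T-ALL 2 and -0.18 in T-ALL 3, and -0.03 without the 8 g/kg T-ALL 2 library. Hspa5, the Hsp70 of the endoplasmic reticulum also known as BiP, had 275 and 268 FPKM at 0.4 g/kg and 234 and 204 at 0.8 g/kg, against 138 and 218 at 8 g/kg. The 0.8 g/kg T-ALL 3 library of Hspa5 lay below the T-ALL 3 control, so the groups overlapped, and the log2 change was 0.48 ± 0.30 (adjusted p = 0.809). Hsp90b1 and Hspa5 are textbook targets of this response, and their promoters are shown because both hold the endoplasmic reticulum stress element. The promoters are from RefSeq on GRCm38.p6, each 250 bases before to 50 after the gene start, printed on the strand of the gene, with matches on either strand in capitals (CCAAT and CCACG with any 9 bases between them). Hsp90b1 lies on the minus strand at chr10:86705395-86705694 and holds 2 matches, and Hspa5 on the plus strand at chr2:34771840-34772139 and holds 1.
Hsp90b1: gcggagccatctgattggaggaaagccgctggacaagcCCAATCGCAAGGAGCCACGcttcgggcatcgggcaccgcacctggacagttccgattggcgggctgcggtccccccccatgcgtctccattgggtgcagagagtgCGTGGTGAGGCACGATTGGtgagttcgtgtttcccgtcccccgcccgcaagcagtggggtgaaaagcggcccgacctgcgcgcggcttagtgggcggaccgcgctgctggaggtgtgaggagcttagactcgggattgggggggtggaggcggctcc
Hspa5: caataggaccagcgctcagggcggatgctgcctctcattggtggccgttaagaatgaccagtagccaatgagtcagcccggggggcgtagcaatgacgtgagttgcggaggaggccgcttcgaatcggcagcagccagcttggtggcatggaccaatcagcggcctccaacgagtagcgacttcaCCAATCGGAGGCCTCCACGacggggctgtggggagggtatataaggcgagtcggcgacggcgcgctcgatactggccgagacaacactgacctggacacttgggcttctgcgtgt
The element was in 0.130% of 27025 promoters, and in 6 of the 11 promoters of the list (Calr, Canx, Creld2, Hsp90b1, Hspa5 and Pdia6). The heat shock element (GAA, TTC and GAA with any 2 bases between neighbours), searched likewise, was in 0.540% of all promoters and in 1 of 9 of the heat shock list, that of Hspe1. Among the 2329 described genes with a promoter, the endoplasmic reticulum stress element was in 0.301% and the heat shock element in 0.515%.

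**Figure D1:**
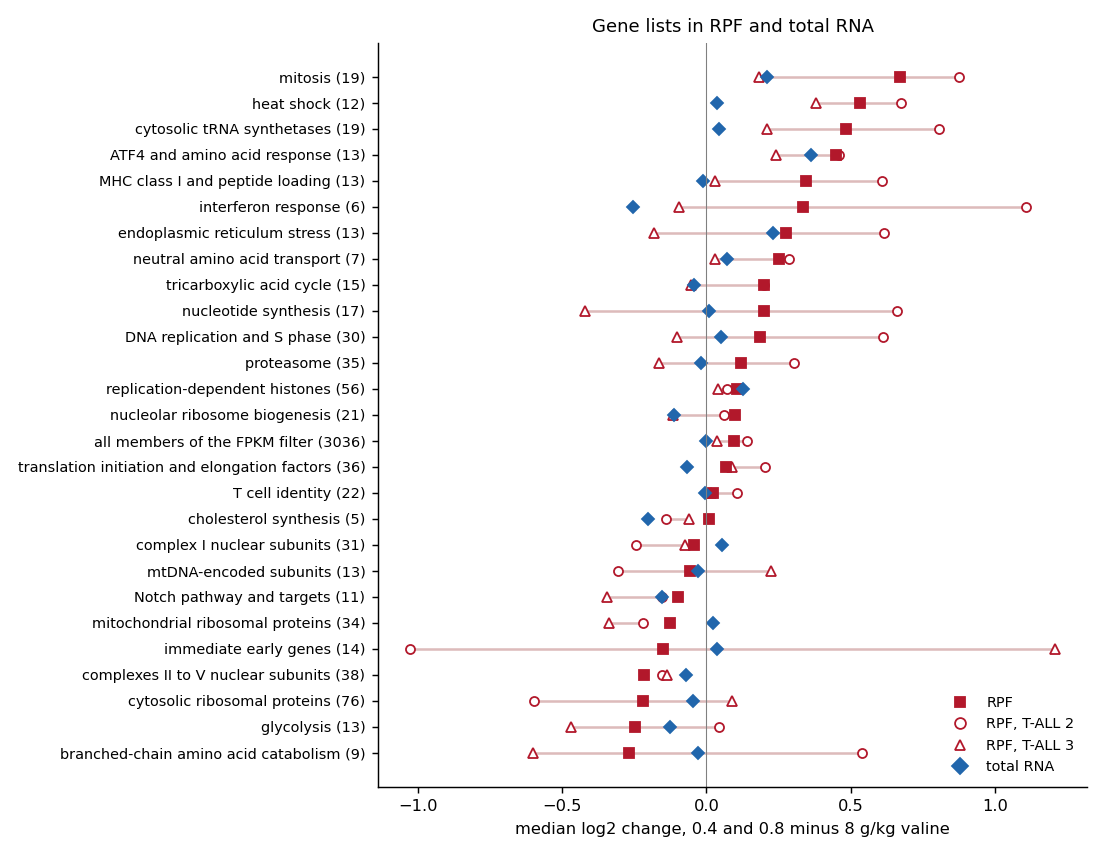
Median log2 change in each gene list, mean of 0.4 and 0.8 minus 8 g/kg valine (x axis), with the number of genes in brackets; filled squares are RPF over both T-ALLs, open circles and triangles RPF in T-ALL 2 and T-ALL 3 alone, and diamonds total RNA. Mitosis, heat shock and tRNA synthetases sit at 0.48 to 0.67 in RPF and at 0.04 to 0.21 in total RNA, and the 2 T-ALLs lie apart for most lists.

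The mitosis list holds cyclins, kinases, kinesins and spindle proteins that drive chromosome segregation. It had the highest median RPF change of the pathway lists, 0.67 over 19 genes, with 16 higher, 3 lower and 0 called. Its genes took 99.3 and 60.5 of 10000 RPF reads at 0.4 g/kg and 79.8 and 63.2 at 0.8 g/kg, against 43.7 and 55.6 at 8 g/kg. The groups did not overlap, but the 95% Wilson interval of the 0.4 g/kg T-ALL 3 library (54.5 to 67.1) met that of the T-ALL 3 control (50.4 to 61.3). The mean shares were 75.7 ± 17.9 on partial valine and 49.7 ± 8.38 in the controls (SD, n = 4 and n = 2), a ratio of 1.52. The median was 0.87 in T-ALL 2 and 0.18 in T-ALL 3, and without the 8 g/kg T-ALL 2 library it was 0.33. In total RNA the list had a median of 0.21, and its share overlapped between groups, at 36.3 to 47.3 against 32.7 and 37.9 per 10000 reads.

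Top2a, the topoisomerase that untangles sister chromatids, had 752 and 374 FPKM in RPF at 0.4 g/kg and 566 and 347 at 0.8 g/kg, against 226 and 355 at 8 g/kg. Its log2 change of 0.77 ± 0.38 (adjusted p = 0.787) came from T-ALL 2, at 1.51, with 0.02 in T-ALL 3. Incenp, a scaffold of the chromosomal passenger complex, had 163, 89.4, 108 and 86.1 FPKM on partial valine against 72.1 and 53.7 in the controls, without overlap, and a log2 change of 0.75 ± 0.37. Plk1, a kinase of mitotic entry, had 131, 55.1, 84.6 and 179 FPKM on partial valine against 57.5 and 78.6, and the groups overlapped. The 2 genes of the list at an unadjusted p under 0.05, named after their values were seen, were the ubiquitin-conjugating enzyme Ube2c at 1.19 ± 0.38 and the spindle motor Kif11 at 1.19 ± 0.42 (log2, adjusted p = 0.787 for both). Ube2c had 38.3 to 54.3 FPKM on partial valine and 19.2 and 16.9 in the controls.

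Many mitotic genes share the cell cycle homology region TTTGAA, which the repressive DREAM complex reads, and the promoter of Top2a is shown because it holds 2 of these. It lies on the minus strand at chr11:99024140-99024439, with matches on either strand in capitals.
Top2a: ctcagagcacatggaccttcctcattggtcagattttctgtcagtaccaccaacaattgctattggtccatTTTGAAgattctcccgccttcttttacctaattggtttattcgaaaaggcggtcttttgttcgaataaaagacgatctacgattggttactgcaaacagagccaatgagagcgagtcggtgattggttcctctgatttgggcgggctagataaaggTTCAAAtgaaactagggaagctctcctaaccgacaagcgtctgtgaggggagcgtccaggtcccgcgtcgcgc
The motif was in 18.2% of all 27025 promoters, in 12.5% of the 2329 described genes with a promoter and in 11 of 14 of the mitosis list.

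Cytosolic tRNA synthetases charge tRNAs with amino acids, and several are ATF4 targets. Of 19 genes 16 were higher, 3 lower and 0 called, with a median log2 change of 0.48 in RPF and 0.04 in total RNA. Their share was 79.1 and 59.1 per 10000 RPF reads at 0.4 g/kg and 58.2 and 61.7 at 0.8 g/kg, against 38.5 and 56.7 at 8 g/kg. The groups did not overlap, but the lowest partial valine value and the T-ALL 3 control differed by less than their Wilson intervals, 55.0 to 61.6 and 51.5 to 62.5. The mean shares were 64.6 ± 9.84 and 47.6 ± 12.9, a ratio of 1.36. The list median was 0.81 in T-ALL 2 and 0.21 in T-ALL 3, and 0.26 without the 8 g/kg T-ALL 2 library. Vars, which charges the valine tRNA, had 443 and 326 FPKM in RPF at 0.4 g/kg and 311 and 343 at 0.8 g/kg, against 178 and 316 at 8 g/kg. The 0.8 g/kg T-ALL 2 value of Vars lay below the T-ALL 3 control, so the groups overlapped, with a log2 change of 0.56 ± 0.37 (adjusted p = 0.812) in RPF and 0.03 in total RNA. The RPF change of Vars was 1.04 in T-ALL 2 and 0.08 in T-ALL 3, and 0.15 without the 8 g/kg T-ALL 2 library. Eprs, the fused synthetase for glutamate and proline, had a log2 change of 1.20 in T-ALL 2 and -0.23 in T-ALL 3. The alanyl-tRNA synthetase Aars, chosen after its values were seen, had 105, 84.3, 61.4 and 71.6 FPKM on partial valine and 33.0 and 42.9 in the controls, with 0.98 ± 0.33 in RPF and 0.49 in total RNA.

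The ATF4 and amino acid response list had 12 of 13 genes higher, 1 lower and 0 called, with medians of 0.45 in RPF and 0.36 in total RNA and of 0.08 in TE. The T-ALLs had medians of 0.46 and 0.24. Atf4 itself had 97.5 and 132 FPKM in RPF at 0.4 g/kg and 105 and 190 at 0.8 g/kg, against 48.9 and 129 at 8 g/kg, a log2 change of 0.63 ± 0.44 (adjusted p = 0.826). The T-ALL 3 control of Atf4 lay above the T-ALL 2 libraries of both partial diets, and without the T-ALL 2 control the change was -0.02. Shmt2, which makes one-carbon units in mitochondria, had log2 changes of 0.45 ± 0.35 in RPF and 0.63 ± 0.16 in total RNA. Ddit3, the stress regulator CHOP, and the related factor Atf5, named after its values were seen, were at an unadjusted p under 0.05. Ddit3 had 36.1, 15.6, 34.4 and 26.0 FPKM on partial valine and 0 and 12.7 in the controls, which stands on 16 and 1 reads. Atf5 had 57.8, 58.4, 18.4 and 111 FPKM on partial valine and 34.8 and 0 in the controls, so its groups overlapped. The summed share of the list overlapped too, at 26.7 to 38.5 per 10000 on partial valine and 24.4 and 28.7 in the controls. Asns (17.1 FPKM over the 8 RPF libraries) and Pck2 (19.5 FPKM), classic targets of ATF4, were under the limit of 20 FPKM. The ATF4 element TGATGNAA was in 0 of 12 promoters of the list, in 4.06% of all promoters and in 1.80% of the 2329 described genes with a promoter.

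Of the amino acid transporters 5 of 7 genes were higher and 2 lower, with 0 called and a median log2 change of 0.25 in RPF. Slc38a2, a neutral amino acid carrier induced by starvation, had 39.4 and 49.1 FPKM at 0.4 g/kg and 53.6 and 49.0 at 0.8 g/kg, against 18.2 and 29.3 at 8 g/kg. The groups did not overlap, and the change was 0.89 ± 0.38 in RPF and -0.17 ± 0.18 in total RNA (log2, adjusted p = 0.787 in RPF). Of the 9 genes of branched-chain amino acid catabolism, 4 were higher and 5 lower, with medians of 0.54 in T-ALL 2 and -0.60 in T-ALL 3. Bcat2, the mitochondrial transaminase of the first step, had 33.6, 36.4, 29.8 and 44.4 FPKM on partial valine and 20.3 and 23.7 in the controls, and Bckdha, a subunit of the dehydrogenase of the second step, 29.5, 31.9, 50.2 and 26.5 against 44.4 and 71.5.

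Glycolysis, which breaks glucose down to pyruvate, took a smaller share of footprints on partial valine. Its genes took 82.3 and 66.6 of 10000 RPF reads at 0.4 g/kg and 85.2 and 80.4 at 0.8 g/kg, against 103.2 and 97.7 at 8 g/kg. By share of read totals, the highest Wilson bound on partial valine was 89.2 and the lowest in the controls 90.8, so the intervals did not meet. The library size behind FPKM was further above the reads in both controls, and intervals on that size were not computed and may meet. Wilson intervals cover counting error only, not the spread between libraries. The means were 78.6 ± 8.23 and 100.5 ± 3.90 (SD, n = 4 and n = 2), a ratio of 0.782. In total RNA the same share was 74.5 to 81.5 on partial valine and 81.4 and 89.9 in the controls. Of 13 glycolysis genes 4 were higher and 9 lower in RPF, with 0 called, a median of -0.25 and a median of -0.13 in total RNA. The median was 0.04 in T-ALL 2 and -0.47 in T-ALL 3, and it was -0.06 without the 0.4 g/kg T-ALL 3 library and -0.45 without the 0.4 g/kg T-ALL 2 library. Aldoa (chromosome 7, 126795234 to 126800994), the aldolase that splits fructose bisphosphate, had 67.8 and 29.3 FPKM at 0.4 g/kg and 105 and 103 at 0.8 g/kg, against 177 and 167 at 8 g/kg, a log2 change of -1.26 ± 0.37 (adjusted p = 0.787) in RPF and -0.16 in total RNA. Gapdh had 492, 410, 594 and 559 FPKM on partial valine and 596 and 743 in the controls, again without overlap, at -0.38 ± 0.28. Pkm, Eno1 and Ldha overlapped between groups, with log2 changes of -0.20, -0.33 and -0.25.

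Nuclear-encoded complex I subunits took 21.3 and 22.2 of 10000 RPF reads at 0.4 g/kg and 22.7 and 25.1 at 0.8 g/kg, against 27.2 and 28.3 at 8 g/kg. The groups did not overlap, but the Wilson intervals did, with 22.4 to 28.1 for the 0.8 g/kg T-ALL 3 library and 22.7 to 32.7 for the T-ALL 2 control. The means were 22.8 ± 1.61 and 27.8 ± 0.733, a ratio of 0.822. The share of total RNA was 30.8 to 33.1 on partial valine and 31.9 and 32.3 in the controls. Gene by gene on the FPKM scale, 15 of the 31 subunits were higher and 16 lower, with 0 called and a median of -0.04. The shares are of read totals instead, so the sum and this median are not on the same scale. The sum covers all 36 listed subunits in the table. Ndufs3 (chromosome 2, 90894627 to 90904721), a core subunit, had 46.9 and 29.0 FPKM at 0.4 g/kg and 27.3 and 72.3 at 0.8 g/kg, against 141 and 106 at 8 g/kg. Its log2 change was -1.48 ± 0.45 in RPF (adjusted p = 0.787) and 0.30 ± 0.13 in total RNA. The core subunit Ndufs1 went the other way, with 76.3, 39.8, 59.1 and 47.3 FPKM on partial valine and 15.8 and 23.2 in the controls, and a log2 change of 1.29 ± 0.40. Ndufv1, which binds NADH, had 114, 82.1, 146 and 106 FPKM on partial valine and 102 and 81.7 in the controls, at 0.26 ± 0.33. Ndufb4 at -1.79 and Ndufs6 at 2.29, named after their values were seen, were the other 2 subunits at an unadjusted p under 0.05. Ndufs6 had 3, 1, 6 and 9 reads on partial valine and 0 and 1 in the controls.

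Nuclear subunits of complexes II to V had a share of 65.4 to 75.5 per 10000 RPF reads on partial valine and of 78.4 and 80.6 in the controls, without overlap, a ratio of 0.900. The Wilson intervals overlapped, with 71.8 to 79.3 for the 0.8 g/kg T-ALL 2 library and 70.4 to 87.3 for the T-ALL 2 control. Their share of total RNA was also lower without overlap, at 83.9 to 91.0 on partial valine and 92.7 and 93.3 in the controls. Of 38 genes 16 were higher, 22 lower and 0 called, with a median of -0.22 in RPF and -0.07 in total RNA. Without the 0.4 g/kg T-ALL 3 library the RPF median was -0.0031, and without the 8 g/kg T-ALL 3 library -0.31. Atp5a1, the ATP synthase α subunit and the most abundant of those named, had 435, 340, 546 and 408 FPKM on partial valine and 426 and 411 in the controls, and a log2 change of 0.03 ± 0.28. Cox6b1, a small subunit of cytochrome c oxidase, had 283, 343, 301 and 231 FPKM on partial valine and 102 and 180 in the controls, at 1.05 ± 0.42 (adjusted p = 0.787). The 13 subunits encoded in mitochondrial DNA had 6 higher and 7 lower, with medians of -0.31 in T-ALL 2 and 0.22 in T-ALL 3. mt-Co1 was at 773 ± 220 FPKM on partial valine and 800 ± 89.0 in the controls.

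**Figure D2:**
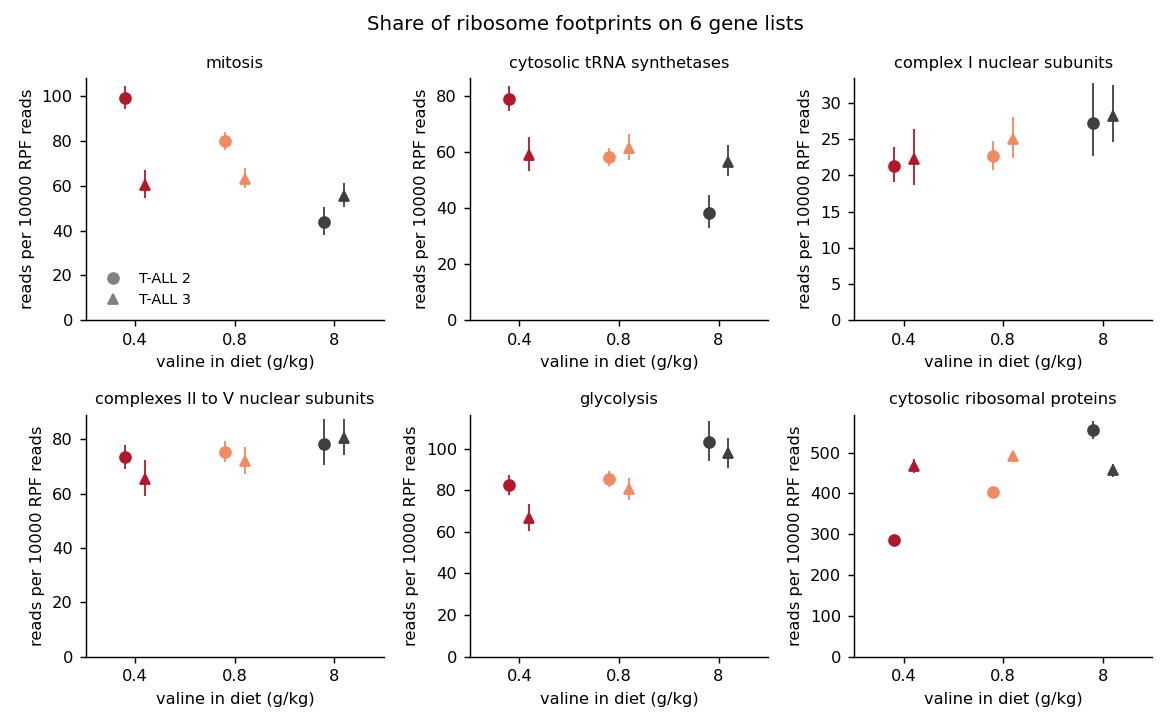
Reads per 10000 RPF reads on 6 gene lists (y axis) by valine in the diet (x axis), 1 point per library (circles T-ALL 2, triangles T-ALL 3), with 95% Wilson intervals that cover counting error only. By share of read totals, mitosis and tRNA synthetases lie higher at 0.4 and 0.8 than at 8 g/kg. Complex I, complexes II to V and glycolysis lie lower, and the ribosomal proteins, at 286 to 491 against 456 and 554, overlap.

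Of the 33 lists, the share was higher without overlap in 2 (mitosis and tRNA synthetases). It was lower without overlap in 3 (glycolysis, complex I and complexes II to V) and overlapped in 28. These shares are of read totals, not of the library size behind FPKM, and shares on that size were not computed. Complex I and complexes II to V, whose Wilson intervals met those of a control, may overlap on it. Among all genes tested, 8.65% were higher without overlap by FPKM and 5.42% lower, and whether the lists exceed that was not tested. Cytosolic ribosomal proteins overlapped. They took 286 and 466 per 10000 RPF reads at 0.4 g/kg and 403 and 491 at 0.8 g/kg, against 554 and 456 at 8 g/kg. Of 76 genes 17 were higher, 59 lower and 0 called, with a median log2 change of -0.22. That median was -0.60 in T-ALL 2 and 0.09 in T-ALL 3, and it was -0.11 without the 8 g/kg T-ALL 2 library and -0.41 without the 8 g/kg T-ALL 3 library. Rps14, a small subunit protein, had 1025, 1087, 1012 and 898 FPKM on partial valine and 1389 and 1355 in the controls, at -0.45 ± 0.26 (log2). The large subunit stalk protein Rplp0 had 1016 to 2238 FPKM on partial valine and 2468 and 1845 in the controls. The elongation factor Eef1a1 was at 4122 ± 682 FPKM on partial valine and 5160 ± 1694 in the controls, and a log2 change of -0.30 ± 0.28, and Eef2 at 1783 ± 273 and 1872 ± 230.3, at -0.08 ± 0.26.

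Several other lists had median log2 changes in RPF, partial valine minus control, of opposite signs in the T-ALLs. Immediate early genes, induced within minutes of a stimulus, had medians of -1.03 in T-ALL 2 and 1.21 in T-ALL 3 over 14 genes, of which 5 were higher and 9 lower on partial valine. DNA replication genes had medians of 0.61 in T-ALL 2 and -0.10 in T-ALL 3, with 21 of 30 higher and 9 lower. Nucleotide synthesis genes had 0.66 in T-ALL 2 and -0.42 in T-ALL 3, with 11 of 17 higher and 6 lower. Tricarboxylic acid cycle genes had 12 of 15 higher and 3 lower, with medians of 0.20 in T-ALL 2 and -0.05 in T-ALL 3, and over both T-ALLs 0.20 in RPF and -0.04 in total RNA. The proteasome had medians of 0.30 in T-ALL 2 and -0.16 in T-ALL 3 over 35 genes, nucleolar ribosome biogenesis 0.06 and -0.12 over 21, and the interferon response 1.11 and -0.09 over 6. Mitochondrial ribosomal proteins had the same sign in both, with medians of -0.22 in T-ALL 2 and -0.34 in T-ALL 3, with 16 of 34 higher and 18 lower. Without the 8 g/kg T-ALL 2 library the medians over both T-ALLs were 0.67 for immediate early genes (-0.15 with it), -0.06 for DNA replication (0.19 with it), -0.24 for nucleotide synthesis (0.20 with it) and 0.03 for the tricarboxylic acid cycle. None of the genes of these 8 lists was called by limma. At an unadjusted p under 0.05 there were 4 higher and 4 lower among mitochondrial ribosomal proteins, and 4 higher and 3 lower in the proteasome. There was 1 higher in DNA replication, 1 lower in nucleolar ribosome biogenesis and 0 in the other 4 lists. Of all genes tested 4.03% were higher and 2.14% lower at that threshold, and the lists were not tested against this share.

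Other genes with the smallest p-values at a change of at least 1 (log2) belonged to varied processes, and each had 4 partial valine libraries on the same side of both controls. Hist3h2ba, an H2B histone, had the smallest p of those with at least 30 reads. It had 547 and 518 FPKM at 0.4 g/kg and 396 and 848 at 0.8 g/kg, against 103 and 161 at 8 g/kg, a log2 change of 2.07 ± 0.37 in RPF (adjusted p = 0.443) and 0.18 ± 0.23 in total RNA. The fit without each library in turn kept Hist3h2ba at 1.76 to 2.38. Histone genes may share reads, so single histones are uncertain, and the histone list had 32 of 56 genes higher and 24 lower, with 0 called and a median of 0.10. The H2A histones Hist1h2an and Hist1h2ac were lower, at 232, 270, 412 and 385 against 644 and 848 FPKM (-1.21 ± 0.27, log2) and at 250, 191, 180 and 353 against 443 and 648 FPKM (-1.17 ± 0.35). Hist1h3f, the gene with the highest level at 8848 FPKM over the 8 RPF libraries, had 9823 ± 2436 FPKM on partial valine and 10322 ± 181 in the controls.

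Among the higher genes, Phf5a, a subunit of the SF3b splicing complex, stood on 32 reads on partial valine and 1 in the controls, a ratio of 7.65 with an exact 95% counting interval of 1.28 to 311. The 40S assembly factor Ltv1 had 12, 1, 10 and 7 reads on partial valine and 0 in both controls, at least 2.39-fold higher against 3 reads over the control group. Map4, which binds microtubules, had 29.9, 27.4, 36.0 and 23.4 FPKM on partial valine and 6.92 and 8.11 in the controls, and a log2 change of 1.44 ± 0.41. Nup153 of the nuclear pore had 69.9, 42.1, 44.5 and 34.4 against 3.45 and 20.2 FPKM. The proteasome subunit Psma6 had 148, 116, 137 and 177 against 60.7 and 71.1 FPKM, while 19 of the 35 proteasome genes were higher and 16 lower. The RNA-binding protein Rbm26 had 36.6, 50.3, 37.4 and 55.8 against 15.0 and 14.7 FPKM. Adjusted p-values by limma were 0.787 for Map4, Nup153, Psma6 and Rbm26, and their total RNA changes were 0.21, 0.13, -0.07 and 0.02.

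Among the lower genes were 2 nucleolar proteins of ribosome assembly and 2 ribosomal proteins. Ppan had 72.5, 66.1, 46.8 and 54.9 FPKM on partial valine and 172 and 148 in the controls, and a log2 change of -1.36 ± 0.33. Rsl1d1 had 68.4, 54.5, 51.5 and 51.8 against 130 and 121 FPKM, at -1.09 ± 0.32. The nucleolar list as a whole had 13 of 21 genes higher and 8 lower. Rps21 had 116, 94.5, 228 and 279 against 526 and 308 FPKM, at -1.28 ± 0.35, and Mrpl41 of the mitochondrial ribosome 45.1, 117, 43.0 and 32.5 against 163 and 127 FPKM, at -1.37 ± 0.43. The tight junction protein Tjp3 had at most 30.5 FPKM on partial valine and 76.7 and 61.2 in the controls. Cd8b1, the CD8 β chain of T cells, had 42.5, 30.6, 19.3 and 11.3 against 71.1 and 66.6 FPKM, at -1.37 ± 0.37, on 20 and 13 reads. The adjusted p of each of these 6 genes was 0.787 by limma.

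**Figure D3:**
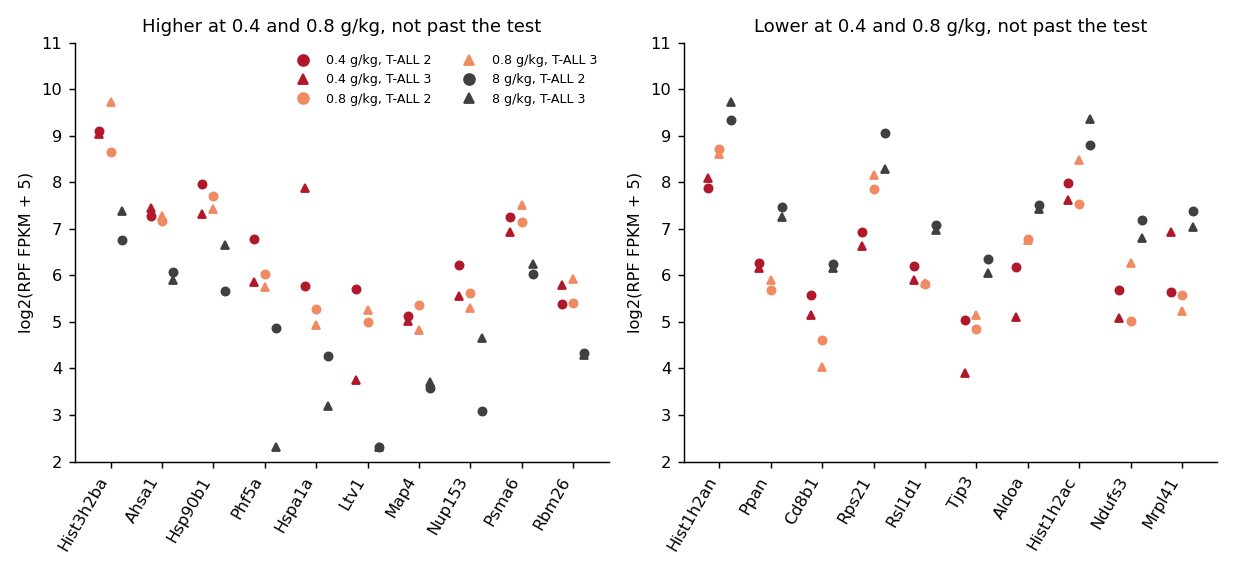
RPF level as log2(FPKM + 5) (y axis) of the 10 higher and 10 lower genes (x axis) in each library; for each gene the points run left to right 0.4, 0.8 and 8 g/kg valine, with circles for T-ALL 2 and triangles for T-ALL 3. All 4 partial valine points of a gene lie on the same side of both control points, which is how these genes were chosen, and none passed the adjusted test.

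None of the genes that mark the leukaemia was called. Notch1, the driver receptor, had 793, 694, 529 and 873 FPKM on partial valine and 529 and 779 in the controls, and a log2 change of 0.14 ± 0.31. These reads cannot separate NOTCH-ΔE from the endogenous gene. Its targets Myc and Hes1 were at 346, 203, 305 and 323 against 362 and 351 FPKM (-0.30 ± 0.30, log2) and at 62.0, 61.9, 77.9 and 68.6 against 115 and 84.1 FPKM (-0.51 ± 0.45). Both lay below the controls in all 4 libraries, with adjusted p-values of 0.859 and 0.842 by limma. The Notch list had 4 of 11 genes higher and 7 lower, with a median of -0.10. T cell identity genes had 12 of 22 higher and 10 lower, with a median of 0.02. Cd3d of the T cell receptor complex was at 282 ± 37.7 FPKM on partial valine and 351 ± 45.1 in the controls (SD, n = 4 and n = 2).

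Globin footprints set the T-ALL 3 control apart. Hbb-bs, the β-globin of red cells, had 190 and 241 FPKM in RPF at 0.4 g/kg and 220 and 134 at 0.8 g/kg, against 302 and 904 at 8 g/kg. Total RNA gave 78.1, 53.6, 64.1 and 33.9 FPKM on partial valine and 124 and 353 in the controls. The log2 changes were -1.43 ± 0.50 in RPF (adjusted p = 0.787) and -1.84 ± 0.39 in total RNA (adjusted p = 0.9999). Hba-a2, an α-globin, was at 245 ± 110.3 FPKM on partial valine and 846 ± 820 in the controls. Erythroid markers summed to 4.17 to 6.15 per 10000 RPF reads on partial valine, and to 5.97 and 19.3 in the controls. Of the 13 markers in the table Hbb-bt and Epor were at 0 in all 6 libraries.

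The change in footprints differed with gene length. Split into 4 classes of 759 genes by the gene length behind the FPKM values, the median log2 RPF change on partial valine was -0.09 for the shortest (69 to 1605 bases), -0.01 for the second (1606 to 2742), 0.12 for the next (2743 to 4214) and 0.24 for the longest (4217 to 23495). In total RNA the same medians were -0.01, -0.01, 0.00 and 0.01. In T-ALL 2 they were -0.17, -0.02, 0.18 and 0.38 in RPF, and in T-ALL 3 -0.04, -0.03, 0.06 and 0.09. At an unadjusted p under 0.05, 46 of the shortest genes were higher on partial valine and 41 lower (6.06% and 5.40%), and 33 of the longest were higher and 1 lower (4.35% and 0.132%), beside 4.03% and 2.14% of all genes tested. Groups did not overlap in 53 of the shortest genes that were higher and 75 that were lower (6.98% and 9.88%). Among the longest the counts were 124 higher and 18 lower (16.3% and 2.37%), beside 8.65% and 5.42% of all genes tested. The longest class took 32.9% and 30.3% of RPF reads at 0.4 g/kg and 30.4% and 26.6% at 0.8 g/kg, against 25.9% and 27.7% at 8 g/kg. The 0.8 g/kg T-ALL 3 library lay between the controls. Across the 3036 genes, Spearman's rho of length and change was 0.194 and Pearson's r 0.117, as a description over genes that share libraries. Among genes with at least 100 reads, an alternative added after seeing the data, medians over 4 such classes were -0.07, 0.15, 0.26 and 0.27.

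**Figure D4:**
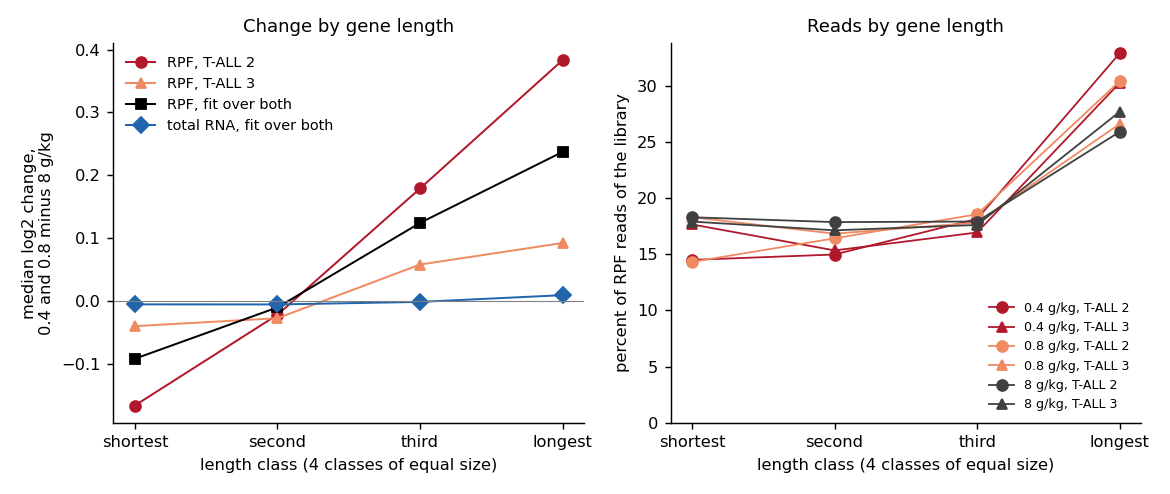
Left, median log2 change (0.4 and 0.8 minus 8 g/kg valine) in 4 classes of the 3036 genes by length, for RPF in each T-ALL and over both and for total RNA. Right, percent of RPF reads of each of the 6 libraries in those classes; the RPF median is -0.09 in the shortest and 0.24 in the longest class, while total RNA stays within -0.01 to 0.01.

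Length touches the gene lists, since their genes differ in it. The median length was 3217 bases for mitosis, 2496 for heat shock and 2909 for tRNA synthetases, but 976 for cytosolic ribosomal proteins, 966 for complexes II to V and 963 for complex I. Glycolysis, at 2432 bases, was near the median of 2742 over the 3036 genes. With each library centred within 10 classes of gene length, chosen after seeing the data, the list medians were 0.61 for mitosis, 0.43 for heat shock, 0.47 for tRNA synthetases and -0.26 for glycolysis. Under that centring the medians of the short-gene lists named above were nearer 0 or above it. They were -0.05 for complexes II to V (-0.22 before), -0.09 for cytosolic ribosomal proteins (-0.22 before) and 0.10 for complex I (-0.04 before). The histone list, of still shorter genes at a median of 474.5 bases, moved away from 0, from 0.10 to 0.28. Class medians of the same 3036 genes set the centring, so part of such a shift is built in.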

How the data were processed

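RPF and total RNA libraries came from sorted leukaemic cells, and the authors deposited FPKM values per gene and library, with replicates kept apart. Per the submitters' processing notes the tools were STAR 2.5.0c, Bowtie2 2.3.4, edgeR 3.14.0 and cutadapt 1.18, with builds GRCm38 and mm10. The role of each tool and how FPKM were scaled is not given in the sources used here.

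Reads were recovered from the FPKM steps, since values of a gene were whole multiples of what 1 read is worth. All 149988 values above 0 came out whole within 0.02 reads (100%). On simulated data the recovery was right for 97.8% of 11959 genes. The intervals and the floor of 3 reads cover counting error only, since PCR copies are not independent molecules.

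The model was limma's (version 3.58.1, R 4.3.3), with trended eBayes, the 4 diets as levels and log2(FPKM + 5) as response. It used the 8 libraries of a fraction and genes averaging at least 1 FPKM there. The contrast was the mean of 0.4 and 0.8 minus 8 g/kg. On this scale the change of genes with few reads is understated. Standard errors are from the moderated variance over all diets. On simulated data with known changes in this comparison (9718 genes) the model called 10 of 56 genes raised 4-fold and 1 of 52 raised 2-fold. It called 3 of 42 lowered by 2 (log2) and 0 of 50 lowered by 1, with 0 false calls. The changed genes had at least 100 reads over the 8 RPF libraries, with an assumed spread common to all genes and no library set apart. The 3036 genes had a median of 86 reads over the 6 libraries, so these rates stand for better-covered genes. TE used the difference of RPF and total RNA of the same diet and T-ALL number. Alternatives were the pseudocount, the filter, the scaling, equal depth, voom on recovered reads with TMM, and the T-ALL number as a block. Others were the 6 libraries fitted as 2 groups, 4 partial valine against 2 control, and each library left out. Lists are described by counts and medians, without a test.

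Genes were named by a rule. It takes genes past the test with all 4 partial valine libraries on the same side of both controls, and fills each direction up to 10 by the lowest unadjusted p. Those must have 30 reads or more, a log2 change of 1 or more in size and no overlap. It adds the 4 most abundant members of each list, of which some are left out, and a fixed set. Genes, lists and rule were chosen with earlier results of these data known. T-ALL numbers were not taken as pairs, because deviations of same-numbered libraries correlated at -0.07 to 0.17 between diets. A planned description by valine content of the proteins was not run, since no protein table was at hand. Positions and promoters are from RefSeq (GRCm38.p6), with 2853 of 3036 symbols found and 2329 with a promoter.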

Additional observations from a re-analysis of the deposited data

Results flagged for a closer look

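Among the 4 partial valine libraries, each of the 99 list shares and gene levels was checked for a single library far from the other 3 by Dixon's ratio. In 8 of them 1 library stood out, and chance gives about 1 in 20 groups. The share of tRNA synthetases was 79.14 per 10000 RPF reads in the 0.4 g/kg T-ALL 2 library. The other 7 were in the 0.4 g/kg T-ALL 3 library, which had the fewest reads of the 4 (58529) and stood apart on the second principal component. There immediate early genes took 35.2 and proteasome genes 46.3 per 10000 reads. Levels in that library were 229.7 FPKM for Hspa1a, 91.9 for Hspa1l, 117.1 for Mrpl41, 166.9 for Ldha and 410.1 for Hba-a2. The share of immediate early genes and the levels of Hspa1a, Hspa1l, Mrpl41 and Hba-a2 were high there, and those of the proteasome and Ldha low.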

How the results depend on the processing

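No alternative that was fitted gave a call in the 0.4 g/kg, total RNA or TE comparisons. TE was not fitted with voom or at equal depth, and the fit of 2 groups covered only partial valine against control. At a pseudocount of 0.5 FPKM, 2 genes passed between partial valine and control, Cetn3 and Mrps11 (adjusted p = 0.0294, limma). They had 22 and 27 reads on partial valine and 0 in both controls, at least 1.75-fold and 2.15-fold higher against 3 reads over the control group. With libraries thinned to equal depth, 27 genes passed at 0.8 against 8 g/kg and 28 at 0.8 against 0.4 g/kg. These genes had 3 to 12 reads over the 6 libraries, and only Bloc1s1 was among the 3036 genes described. Voom on recovered reads called 0 genes. With the T-ALL number as a block 0 genes passed in all 6 comparisons, with a lowest adjusted p of 0.305 between partial valine and control. Of 8 RPF libraries 6 correlated best with the library of their own number, a hint from the data and not the design, and the block changed no other call.

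Leaving out single libraries gave 71 to 254 higher and 32 to 105 lower genes at an unadjusted p under 0.05. The log2 change turned sign for Atp5a1 (-0.0341, libraries centred on their median), for Hist1h3f (0.0870), Notch1 (-0.0306) and mt-Co1 (0.0767) with libraries centred within 10 length classes, and for Ndufs6 (-0.37, equal depth). It ranged over both signs when libraries were left out for Atp5a1 (-0.0773 to 0.130), Pkm (-0.53 to 0.12), Eef1a1 (-0.64 to 0.0419), Eef2 (-0.203 to 0.0485), Hist1h3f (-0.33 to 0.12), Notch1 (-0.13 to 0.42), Atf4 (-0.0235 to 1.29) and mt-Co1 (-0.221 to 0.0444). The cause was not tested. The rise of the RPF median with gene length was present in each alternative except centring within length classes, with -0.19 to -0.03 in the shortest and 0.17 to 0.30 in the longest class. Genes had a median of 6 and 10 reads in the 2 controls, which limits their precision.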
